A study of Mus musculus with 6 samples.

Results

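Glucose enters a cell through transporters of the Slc2a family, is trapped by hexokinase and is split by the glycolytic enzymes into pyruvate, which either becomes lactate and leaves through monocarboxylate transporters or enters mitochondria through the pyruvate dehydrogenase complex. Most steps are served by isozymes from separate genes, which differ in tissue, affinity and control. Resting natural killer (NK) cells keep a modest glycolytic rate, and cytokine stimulation is known to raise glucose uptake and the glycolytic enzymes in them. The module described here holds 35 genes of glucose and lactate transport, the glycolytic isozymes, their regulators and pyruvate entry. They were taken by gene symbol from the 55291 gene names of the count table, and all 35 were found. The rule uses no measured value, but the list was drawn up with earlier results of these data known.

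Bulk RNA was sequenced from NK cells of mouse spleen in 6 libraries, each from 1 mouse kept under steady state conditions. There are 2 genotypes with 3 mice each, wild type for HSF1 (WT 1, 2 and 3) and S303/7A (5, 6 and 7). In the latter, alanine replaces serine 303 and serine 307 of heat shock factor 1, the transcription factor of the heat shock response. The cells were enriched with DX5 beads and sorted as CD49b+ and CD3e-, and 300000 to 500000 cells per mouse gave the RNA. The sources used here do not give the strain, age or sex of the mice, or whether the mutation is present in other cells. HSF1-enhanced is the series text's name for the mutant mice. The question is how their unstimulated NK cells differ from wild type.

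Total counts per library were 53845572 to 72736406 for WT and 43189163 to 47248039 for S303/7A, so depth differed with genotype. The 35 genes held between 0.529% and 0.598% of all counts in every library. NK markers summed to 19700 to 23800 CPM (counts scaled to a common library size) over 10 genes, so the defining markers were present. Of these, Klrb1c was called lower, at 0.686 of its WT level (adjusted p 0.0454, edgeR's quasi-likelihood test), and Klrk1 and Klre1 were at 1.48 of theirs without passing. Hsf1 itself was at 83.2, 104 and 108 CPM in the WT mice and 67.0, 42.2 and 76.9 CPM in the mutants, with a log2 fold of -0.67 that did not pass (adjusted p 0.386, edgeR's quasi-likelihood test), and its level does not check the labels because the mutations are substitutions. Among markers of other cells that the CD49b sort can hold, all 10 basophil and all 10 platelet genes had log2 folds below 0 (medians -1.01 and -0.69), with 1 and 0 of them called. Summed basophil markers (10 genes) were at 504 to 989 CPM in WT and 289 to 426 CPM in S303/7A, and summed platelet markers (10 genes) at 299 to 340 and 159 to 211 CPM. Neutrophil markers summed to 50.4 to 87.6 and 30.7 to 39.1 CPM, and 3 of those 10 genes were under 1 CPM. Markers of other cells did not all fall. B cell markers summed to 321 to 645 CPM in WT and 495 to 648 CPM in S303/7A, with 6 of 7 log2 folds above 0. T cell markers summed to 54.9 to 96.5 and 78.5 to 108 CPM, with 7 of 8 above 0. Monocyte and macrophage markers summed to 43.4 to 61.5 and 36.2 to 47.9 CPM, and erythroid markers to 7.23 to 8.95 and 3.87 to 7.19 CPM. No gene of these marker lists was at 0 in all libraries. Cell cycle genes (10, none called) all had log2 folds above 0 and summed to 359 to 443 CPM in WT and 355 to 570 CPM in S303/7A.

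Of the 34 genes that passed the filter on low counts, 2 fell in S303/7A and none rose. Hk2, the inducible hexokinase, was at 0.404 of its WT level, and Eno1b, a retrocopy of the enolase gene Eno1, at 0.387. Over all 16480 genes tested 0.364% were called at an adjusted p under 0.05, with 0.231% lower and 0.133% higher. Log2 folds of S303/7A over WT were above 0 for 16 and below 0 for 18 of the 34 genes, and below 0 for 48.3% of all genes tested. Their median was -0.02, against 0.01 over all genes tested. At an unadjusted p under 0.05 there were 2 lower and 3 higher genes, the latter being Eno1, Gapdh and Ldha, where the background was 5.47% lower and 4.21% higher. DESeq2 called 1 gene higher, Eno1 (adjusted p 0.0485).

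**Figure D1:**
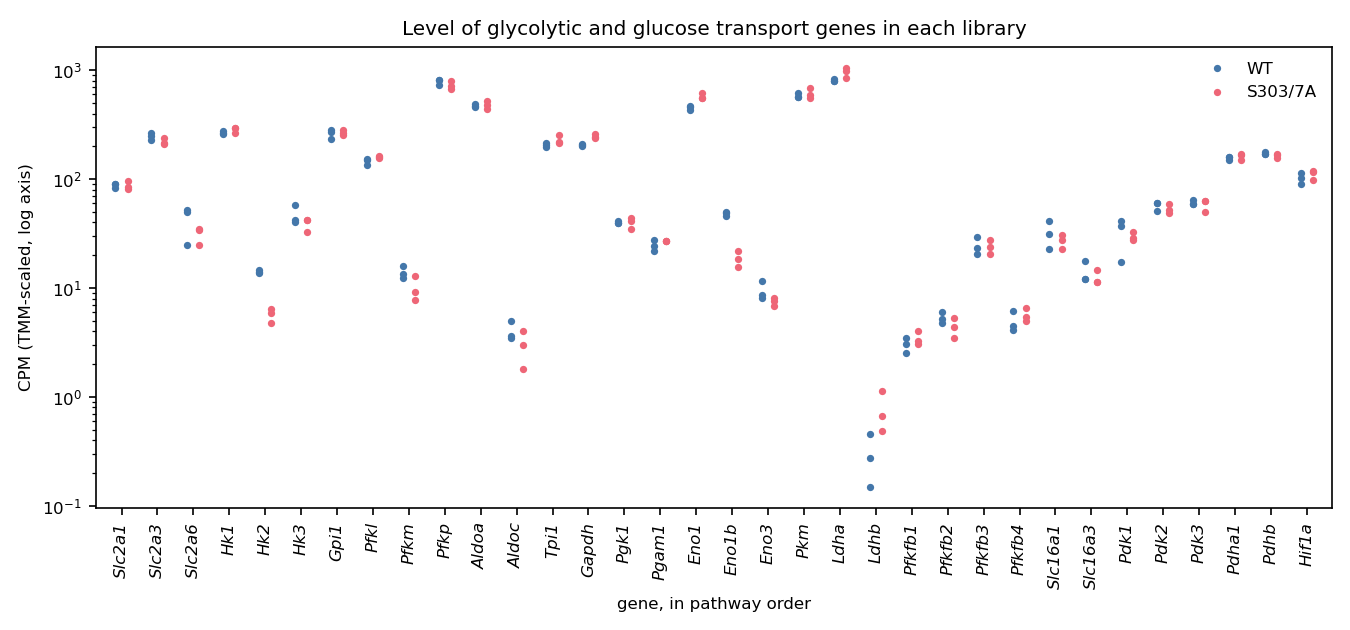
CPM of the 34 tested genes (log axis) in pathway order, with 1 point for each library (3 WT, 3 S303/7A). Levels span from under 1 CPM for Ldhb to 1051 CPM for Ldha. The points of S303/7A lie without overlap below WT for Hk2, Eno1b and Eno3. They lie without overlap above WT for Pfkl, Tpi1, Gapdh, Eno1, Ldha and Ldhb.

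**Figure D2:**
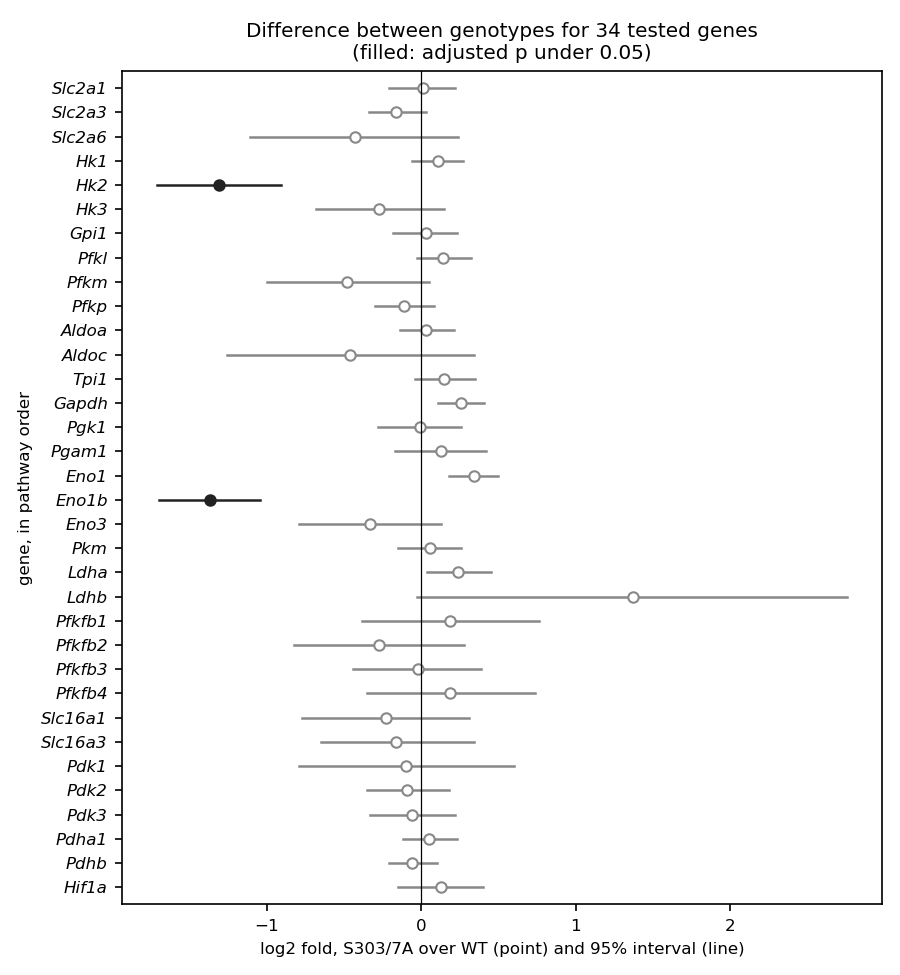
Log2 fold of S303/7A over WT for the 34 tested genes, with the fitted value as a point and the 95% interval as a line, and filled points where the adjusted p is under 0.05. Hk2 (-1.31) and Eno1b (-1.37) stand apart on the left, and of the other intervals only those of Gapdh, Eno1 and Ldha leave out 0.

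All 3 libraries of S303/7A lay above all 3 of WT for 6 genes (Pfkl, Tpi1, Gapdh, Eno1, Ldha and Ldhb), below them for 3 (Hk2, Eno1b and Eno3), and the other 25 overlapped. Over all genes tested 7.64% lay wholly above and 8.37% wholly below. Several abundant genes varied little within WT. Gapdh and Pdhb varied by 2.21% (coefficient of variation over the WT libraries) and Ldha by 3.02%, while Pdk1 varied by 39.6%, Slc2a6 by 36.3% and Slc16a1 by 29.5% among WT mice. WT 3 was the lowest WT library for all 3 of those genes. It also had the lowest WT sums of B cell markers (321 against 561 and 645 CPM) and T cell markers (54.9 against 92.7 and 96.5 CPM). Its NK sum was the highest of WT, and its basophil, neutrophil, monocyte and erythroid sums lay between those of WT 1 and WT 2. Whether the cell mixture plays a part in the spread of these genes was not tested.

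Of the glucose transporter genes, Slc2a3 and Slc2a1 had the highest levels. Slc2a3, which encodes the high-affinity transporter GLUT3, was at 231, 249 and 263 CPM for WT 1, 2 and 3, with 212, 239 and 216 CPM in mutants 5, 6 and 7. The groups overlapped, and the log2 fold of -0.16 ± 0.08 (SE) did not pass. Slc2a1, the gene of GLUT1, the transporter that activated lymphocytes raise, was at 82.1, 90.1 and 89.5 CPM for WT and 81.5, 84.8 and 96.5 CPM for S303/7A. Its fold had a 95% interval from 0.865 to 1.17. Slc2a6, which encodes GLUT6, a transporter of intracellular membranes, was at 52.0, 50.4 and 24.6 CPM for WT and 25.1, 34.3 and 34.5 CPM for S303/7A. WT 3 was lower than all S303/7A libraries, and the log2 fold of -0.43 ± 0.29 did not pass. Per kilobase of exon, Slc2a3 was the highest of the module's glucose transporter genes in every library (29.3 to 36.3 CPM per kb). Slc2a1 came next (23.2 to 27.5) and Slc2a6 was the lowest of them (7.66 to 16.2), with no overlap between neighbours. Slc2a8, outside the module, ranged from 4.89 to 8.19 CPM per kb and overlapped Slc2a6.

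Hexokinase commits glucose to the cell by phosphorylating it. Hk1, the constitutive isozyme bound to mitochondria, carried most of the hexokinase level, with 258, 263 and 277 CPM for WT and 298, 264 and 297 CPM for S303/7A. Hk3, an isozyme of myeloid cells, was at 42.3, 58.3 and 40.1 CPM and at 42.2, 32.7 and 42.0 CPM. Neither passed (log2 folds 0.11 ± 0.07 and -0.27 ± 0.18, SE). Hk2, which is induced by cytokines, MYC and HIF1 in many cells, was at 14.0, 14.7 and 13.6 CPM for WT and 5.90, 4.78 and 6.38 CPM for S303/7A. These rest on 798 to 997 counts per WT library and on 206 to 298 counts per S303/7A library, and the lowest WT library was above the highest S303/7A library. The log2 fold was -1.31 ± 0.17 (SE), a fold of 0.404 with a 95% interval from 0.306 to 0.532 (edgeR's quasi-likelihood test, adjusted p = 0.0439). With all libraries thinned to equal totals it was -1.30 on the log2 scale (adjusted p = 0.0396). Leaving out any 1 library ended the call, with adjusted p from 0.0731 to 0.2, while the log2 fold stayed between -1.40 and -1.20. In RNA of a cell mixture, fewer cells of a type that holds a transcript and less of it per cell cannot be told apart. The basophil and platelet markers that were lower in the same libraries are given above, and their part in the Hk2 difference was not tested.

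Hk2 lies on chromosome 6 (82725025 to 82774454, minus strand, GRCm38). No 50-base word of its longest coding transcript occurs in a transcript of another annotated gene. The 250 bases before its start site are shown because Hk2 is the called gene without copies, beside those before a start site of Ldha, the gene of the module with the highest level per kilobase. Capitals mark the core of the hypoxia response element, ACGTG on either strand (CACGT when read from the other), and CACGTG holds both.

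Hk2 promoter, chr6:82774455-82774704, minus strand, GRCm38.p6: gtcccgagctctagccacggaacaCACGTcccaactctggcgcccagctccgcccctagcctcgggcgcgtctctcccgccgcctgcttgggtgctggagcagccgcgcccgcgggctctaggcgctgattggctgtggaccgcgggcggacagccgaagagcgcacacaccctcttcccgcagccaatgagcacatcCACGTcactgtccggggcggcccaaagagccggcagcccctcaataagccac

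Ldha promoter, chr7:46845554-46845803, plus strand, GRCm38.p6: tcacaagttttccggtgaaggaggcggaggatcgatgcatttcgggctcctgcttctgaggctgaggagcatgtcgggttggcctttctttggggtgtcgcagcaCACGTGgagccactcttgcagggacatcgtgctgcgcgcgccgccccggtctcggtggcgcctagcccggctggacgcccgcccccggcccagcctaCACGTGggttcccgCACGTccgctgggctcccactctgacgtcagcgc

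These sequences are from RefSeq, which had start sites for 33 of the 35 genes (all but Slc2a3 and Eno1b), with 52 promoters of 300 bases each (250 before and 50 after the start). The core was found 2 times in the Hk2 promoter and 3 times in the Ldha promoter shown. Another Ldha promoter in the table, chr7:46846832-46847131, held none. The core was present in 46.2% of the 52 promoters and in 19.6% of all 32851 promoters of that length. By gene, 20 of the 33 had it, among them Slc2a1, Pgk1, Gapdh and Hif1a. The Gapdh match lies after the start site. Windows of different start sites of 1 gene can overlap, and windows of Aldoa share the same match. The paired heat shock element motif is GAANNTTC or TTCNNGAA, read on both strands. It was present in 7.69% of the 52 promoters (Pfkl, Pfkm, Pfkfb2 and Eno2) and in 15.1% of all promoters. These are matches of letters only.

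Glucose-6-phosphate isomerase (Gpi1) was at 235 to 282 CPM in WT and 255 to 284 CPM in S303/7A. Phosphofructokinase, the main control point of glycolysis, is built from platelet (Pfkp), liver (Pfkl) and muscle (Pfkm) type subunits. Pfkp led, with 740, 813 and 810 CPM for WT and 712, 801 and 673 CPM for S303/7A. Pfkl was at 134, 151 and 153 CPM and at 164, 158 and 161 CPM, so all S303/7A libraries were higher, but by a log2 fold of 0.14 ± 0.07 (SE) that did not pass. Pfkm was at 12.3, 16.0 and 13.4 CPM against 9.24, 7.79 and 12.9 CPM. S303/7A 7 lay within the WT range, and the log2 fold of -0.48 ± 0.22 did not pass (adjusted p 0.563, edgeR's quasi-likelihood test).

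The bifunctional PFKFB enzymes set the level of fructose 2,6-bisphosphate, the activator of phosphofructokinase. Pfkfb3, the isozyme with the strongest kinase activity, was the leading gene, with 23.1, 29.2 and 20.6 CPM for WT and 27.5, 20.5 and 23.6 CPM for S303/7A. Pfkfb1, Pfkfb2 and Pfkfb4 were between 2.52 and 6.53 CPM in all libraries. All 4 genes overlapped between the genotypes, with log2 folds from -0.27 to 0.19.

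Of the enzymes that split and oxidise the sugar, aldolase was almost wholly Aldoa (442 to 518 CPM over the 6 libraries), with Aldoc at 1.80 to 4.98 CPM. Triose phosphate isomerase (Tpi1) was at 217, 198 and 204 CPM for WT and 218, 252 and 217 CPM for S303/7A, where WT 1 and mutants 5 and 7 were almost equal. The log2 fold of 0.15 ± 0.08 (SE) did not pass. Gapdh, the oxidising step, was at 212, 206 and 203 CPM for WT and 245, 262 and 239 CPM for S303/7A, without overlap. Its log2 fold was 0.26 ± 0.06 (SE), which did not pass (adjusted p 0.221, edgeR's quasi-likelihood test). Pgk1, the first step that yields ATP, was at 39.6 to 41.4 CPM in WT and 34.7 to 44.0 CPM in S303/7A, and the mutase gene Pgam1 at 22.0 to 27.7 and 26.8 to 27.2 CPM.

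Several of these genes share sequence with processed copies elsewhere in the genome, which limits what a level means. For Gapdh 90.4% of the 50-base words of its transcript occur in at least 1 of 218 other annotated genes, for Eno1 72.2%, for Pgk1 68.0%, for Pgam1 41.5%, for Pkm 30.5% and for Pdhb 30.3%. The sources used here do not say how the authors' counting treated reads that match several places. Levels of these genes, per length or not, are uncertain for that reason. Exons also overlap those of other genes over 19.5% of the length of Pfkfb2, 16.1% of Pdha1, 15.3% of Pkm, 11.5% of Gpi1 and 10.7% of Pfkm, and without a known strand setting such reads cannot be told apart.

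Enolase turns 2-phosphoglycerate into phosphoenolpyruvate, and Eno1 is its ubiquitous gene. Eno1 was at 435, 470 and 457 CPM for WT and 551, 617 and 557 CPM for S303/7A. Eno1b was at 45.8, 49.5 and 49.2 CPM for WT and 18.5, 21.7 and 15.7 CPM for S303/7A. For both the genotypes did not overlap, and in opposite directions. The log2 fold was 0.34 ± 0.07 (SE) for Eno1, with an adjusted p of 0.135, and -1.37 ± 0.14 for Eno1b, with an adjusted p of 0.018, both by edgeR (quasi-likelihood). The Eno1b call was lost without any one of WT 1, WT 2, WT 3 and S303/7A 5 (adjusted p up to 0.108) and held without S303/7A 6 and S303/7A 7. Eno3, the muscle gene, was at 8.15, 11.6 and 8.54 CPM and at 7.67, 6.82 and 8.05 CPM. Eno2, the neuronal gene, had 14, 1 and 0 counts in WT and 0, 0 and 11 in S303/7A, and was not tested.

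Eno1b, on chromosome 18, differs from Eno1 at 8 of 1302 coding bases. Some other near copies of Eno1 and Gapdh, named after their values were seen, were also called lower. Whether a difference in strain background or in read mapping between the genotypes plays a part in these copy counts, the Eno1b call included, was not tested. Gm4735, a processed pseudogene on chromosome 2 (80837141 to 80838442), differs from Eno1 at 5 of 1302 coding bases. It was at 14.1, 15.3 and 14.8 CPM for WT and 1.59, 1.32 and 1.22 CPM for S303/7A, with a log2 fold of -3.42 ± 0.19 (SE) and an adjusted p of 0.00168 (edgeR). Gm5855, a processed pseudogene on chromosome 3 (130929366 to 130930670) with 96.4% identity to Eno1, was at 5.47, 6.21 and 5.36 CPM and at 0.397, 0.510 and 0.492 CPM (log2 fold -3.60 ± 0.26, adjusted p 0.00448). Gm13394, on chromosome 2 (28933610 to 28934609), differs from Gapdh at 1 of 999 aligned coding bases. It was at 40.9, 41.9 and 41.3 CPM and at 19.7, 24.1 and 19.2 CPM (log2 fold -0.98 ± 0.12, adjusted p 0.0415).

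The sequences show how little separates a read of the gene from a read of its copy. Each line gives 60 bases in coding direction, counted from the first base of the annotated coding sequence in the transcript where it is longest, with the differing bases in capitals. Over bases 1198 to 1257 of Eno1 the changes to Gm4735 are T1224C and C1233T, and over bases 394 to 453 of Gapdh the change to Gm13394 is A424C.

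Eno1: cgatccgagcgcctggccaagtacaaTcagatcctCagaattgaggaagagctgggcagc

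Gm4735: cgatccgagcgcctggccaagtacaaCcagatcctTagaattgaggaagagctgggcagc

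Gapdh: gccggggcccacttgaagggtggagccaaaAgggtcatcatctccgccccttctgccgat

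Gm13394: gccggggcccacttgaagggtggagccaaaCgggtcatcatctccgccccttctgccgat

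In all, 18 tested genes share at least 10% of such words with a member, and their counts were set against those of the parent gene in the same library. Gm5855 shares 11.3% with Eno1b and 6.88% with Eno1, and Eno1 was taken as its parent. The ratio was lower in all S303/7A libraries for 6 of the 18, higher in all for 1 and overlapped for 11. Such ratios have no background over all genes. For CPM, 8.37% of all genes tested lay wholly below WT and 7.64% wholly above. All 3 copies taken for Eno1 at this cut were among the lower ones. Gm8483, which shares 6.03% with Eno1b and so misses the cut, overlapped between the genotypes in CPM. Eno1b had 10.5%, 10.5% and 10.8% of the Eno1 counts in WT and 3.36%, 3.52% and 2.83% in S303/7A, and Gm4735 had 3.25%, 3.25% and 3.24% against 0.288%, 0.214% and 0.219%. For Gapdh 71 copies in the count table reach 10%, most of them with too few counts to be tested. Of its 12 tested copies only 3 were lower (Gm13394, Gm4609 and Gm4691) and 9 overlapped. Gm13394 had 19.3%, 20.4% and 20.3% of the Gapdh counts against 8.02%, 9.18% and 8.07%, while Gm3200 had 0.769%, 0.688% and 0.816% against 0.608%, 0.61% and 0.745%. The Pgam1 copy Pgam1-ps2 went the other way, with 0.585%, 0.729% and 0.679% against 1.13%, 1.53% and 1.43%, and the copies of Pkm and Pdhb overlapped.

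When the counts of all copies that share at least 10% of such words were added to their parent before the fit, a choice made after seeing the data, the log2 fold was 0.19 ± 0.07 (SE) for Eno1 and 0.09 ± 0.07 for Gapdh (adjusted p 0.446 and 0.748, edgeR's quasi-likelihood test). With Eno1b alone added to Eno1 it was 0.24 ± 0.07. None of these passed.

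**Figure D3:**
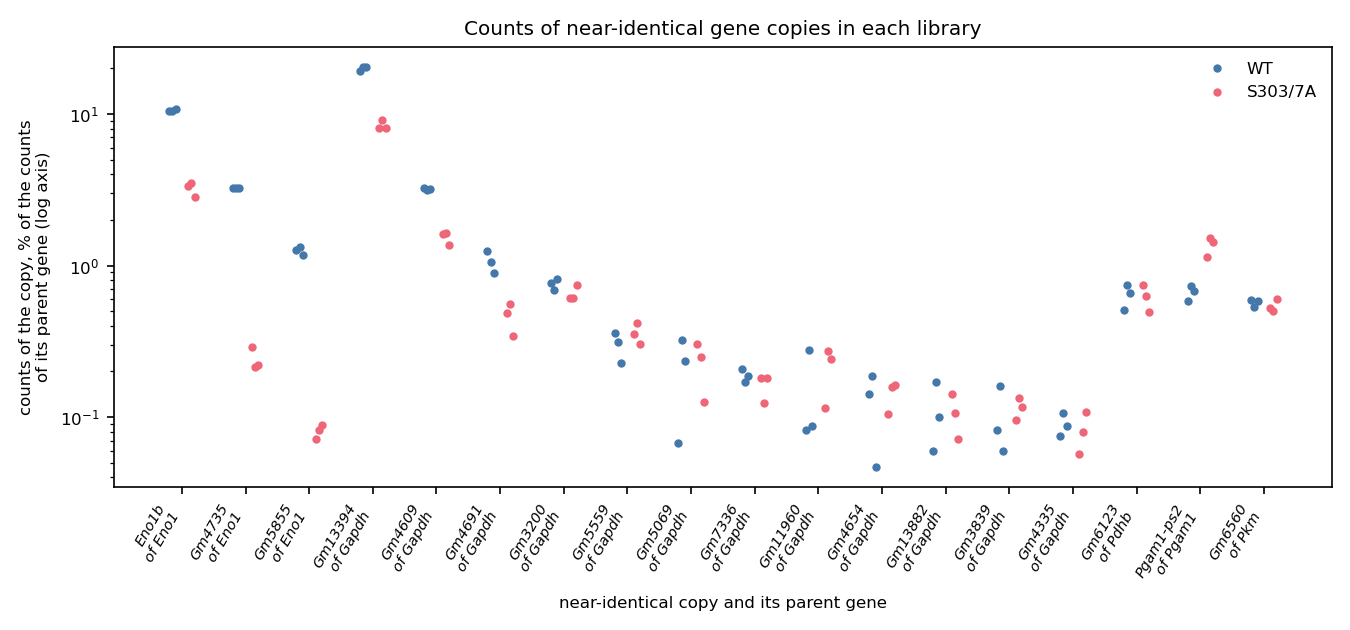
Counts of 18 tested copies as a percentage of the counts of their parent gene (log axis), with 1 point for each library. The 3 copies of Eno1 and 3 of the 12 copies of Gapdh lie lower in all S303/7A libraries, Pgam1-ps2 lies higher, and the other copies overlap.

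Pyruvate kinase (Pkm) was at 571, 624 and 573 CPM for WT and 594, 685 and 558 CPM for S303/7A, with overlap. Lactate dehydrogenase regenerates NAD from pyruvate, with Ldha encoding the subunit that favours lactate and Ldhb the one that favours pyruvate. Ldha, the highest gene of the module per kilobase in every library, was at 836, 801 and 789 CPM for WT and 979, 1051 and 844 CPM for S303/7A. All 3 S303/7A libraries were above WT, the closest at 844 against 836, and the log2 fold of 0.24 ± 0.09 (SE) did not pass (adjusted p 0.426, edgeR's quasi-likelihood test). Ldhb was near the floor, with 29, 15 and 11 counts in WT and 21, 49 and 31 in S303/7A. Its log2 fold of 1.37 ± 0.59 did not pass, and 27.0% of its 50-base words occur in another gene.

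Lactate leaves through monocarboxylate transporters. Slc16a1 (MCT1) was at 41.5, 31.1 and 22.8 CPM for WT and 27.8, 31.0 and 22.8 CPM for S303/7A, and Slc16a3 (MCT4), the exporter of highly glycolytic cells, at 12.1, 17.6 and 12.0 CPM and at 11.4, 11.3 and 14.7 CPM. Both overlapped between the genotypes, and the 95% intervals of the fold ran from 0.587 to 1.24 and from 0.639 to 1.26.

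The genes of pyruvate entry overlapped between the genotypes. Pdha1 and Pdhb, the subunits of the first enzyme of the pyruvate dehydrogenase complex, were at 149 to 161 and 169 to 176 CPM in WT and at 150 to 169 and 156 to 172 CPM in S303/7A. The kinases that switch the complex off were led by Pdk3, at 58.7 to 64.5 CPM in WT and 49.5 to 62.9 in S303/7A, and Pdk2, at 56.9 ± 5.35 and 53.6 ± 5.18 CPM (SD, n = 3). Pdk1, the kinase gene that HIF1 induces, was at 41.1, 37.1 and 17.5 CPM for WT and 27.8, 33.0 and 28.7 CPM for S303/7A, so the spread among WT mice exceeded the difference between the genotypes. Hif1a, the hypoxia-inducible factor gene, was at 102, 114 and 89.8 CPM and at 120, 116 and 97.3 CPM, with overlap and a log2 fold of 0.13 ± 0.12 (SE).

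Isozyme choice was described by the share of each gene in the exon-length-corrected level of its family, counting only genes of the module. Hk1 made up 67.5% ± 4.33 of the hexokinase level in WT against 74.5% ± 1.48 in the mutants (SD, n = 3), and Hk3 27.4% ± 4.36 and 23.4% ± 1.36. The share of Hk2 was 5.34%, 5.01% and 4.98% in WT and 2.09%, 1.97% and 2.26% in S303/7A. Pfkp held 64.2% to 69.9% of phosphofructokinase over all libraries, Aldoa 98.9% to 99.5% of aldolase and Ldha 99.8% to 100% of lactate dehydrogenase. Slc2a3 held 43.8% to 52.2% of the glucose transporter level, Pfkfb3 49.6% to 61.9% of the PFKFB level, Slc16a1 65.0% to 80.5% of the monocarboxylate transporter level and Pdk3 46.3% to 56.2% of the kinase level. With coding length in place of exon length the gene with the highest mean share was the same in all 9 families, though Pdk2 and Pdk3 lay close (39.0% and 41.1% in WT). The size of many shares depended on the length used. Slc2a3 held 61.3% to 68.9% of the glucose transporter level per coding length, and Pfkp 77.6% to 81.9% of phosphofructokinase. Slc2a1 was at 23.8% in WT per coding length, against 34.5% per exon length. Per coding length Hk3 was at 16.0% in WT and 13.3% in S303/7A, Slc2a6 at 11.5% and 9.32%, Pfkl at 16.9% and 19.7%, Pfkm at 1.51% and 1.16%, and Pdk1 at 20.0% and 20.1% against 8.8% in both per exon length. In the enolase family Eno1b took 22.2% ± 0.36 of the level in WT and 8.17% ± 0.874 in S303/7A per exon length, but 10.0% and 3.31% per coding length.

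One isozyme in each of 9 families was tested with a 2-sided exact permutation test over the 6 libraries, where 0.1 is the smallest p that 3 against 3 can give. Hk2 reached it with a difference of -3 percentage points, as did Eno1 and Eno1b together with 1.1 points (96.4% against 95.3% of enolase), and both have an adjusted p of 0.45. The other 7 had an exact p from 0.2 to 1. Slc2a1 differed by 3.73 points (p = 0.2, exact permutation test), Pfkp by -2.7 points and Pfkfb3 by -1.55 points.

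**Figure D4:**
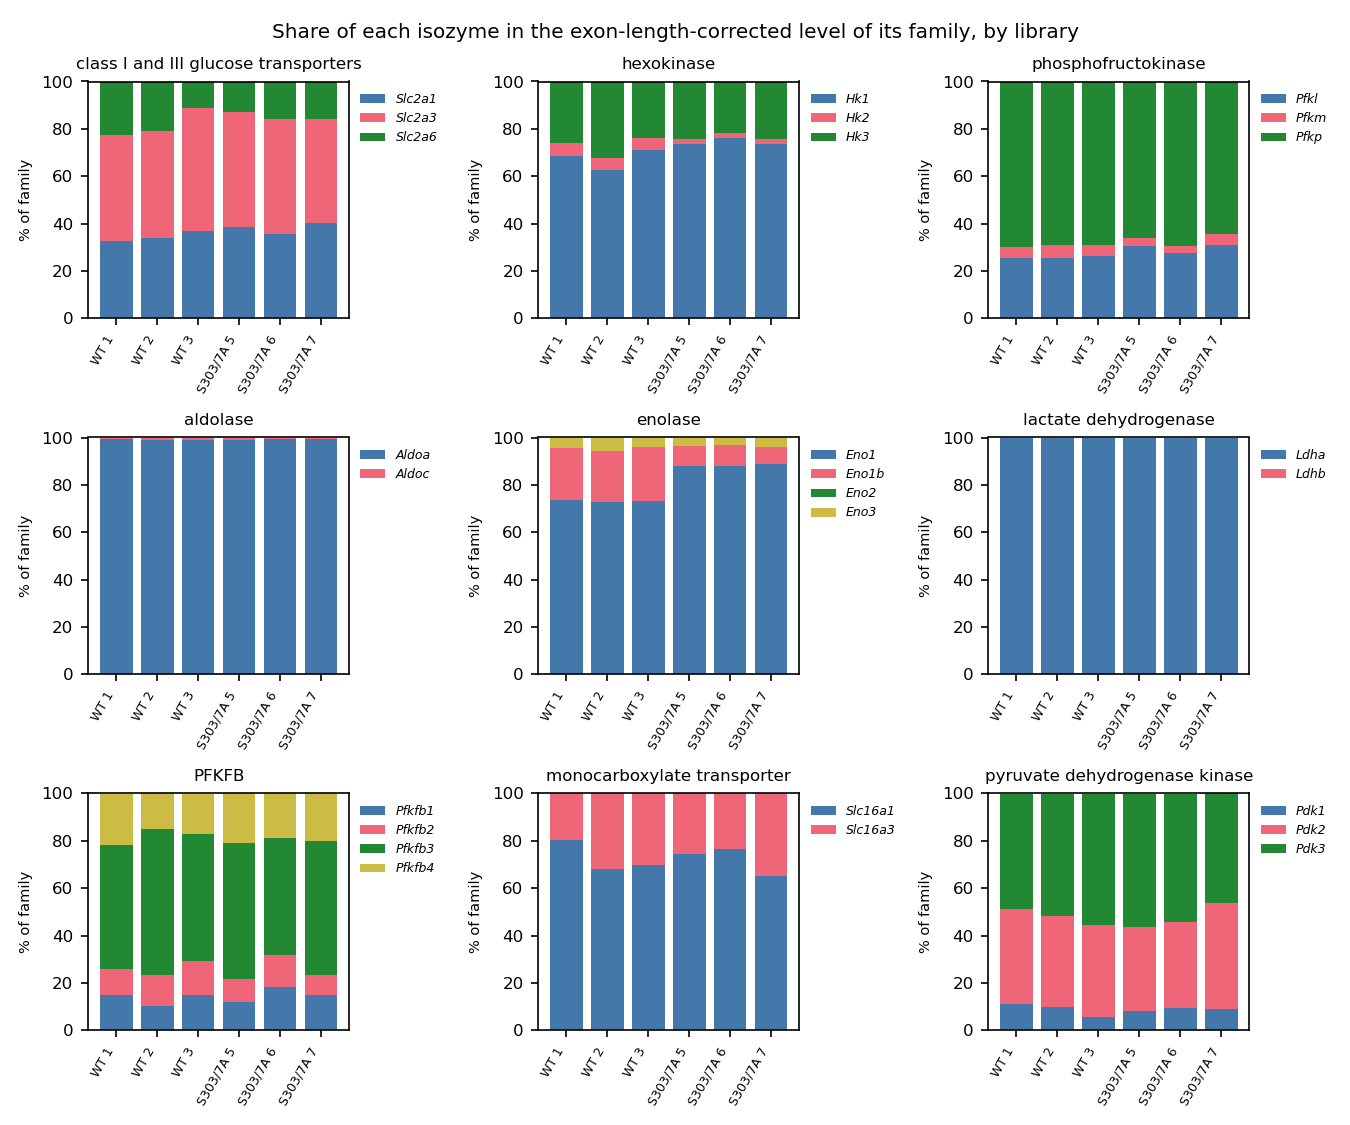
Stacked bars of the share of each isozyme (percent, exon-length-corrected counts) in its family, counting only genes of the module, for 9 families and 6 libraries. Hk1, Pfkp, Aldoa, Eno1, Ldha and Slc16a1 take most of their family in every library, and the Hk2 band is near 5% in WT and near 2% in S303/7A.

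A wider set of 114 genes around the pathway, of which 113 were in the table and 99 were tested, had 2 genes higher in S303/7A and none lower, where DESeq2 called 1 lower, the glycogen phosphorylase gene Pygl (adjusted p 0.0471). Over all genes tested 0.133% were called higher and 0.231% lower. Unadjusted p was under 0.05 for 8 higher and 7 lower genes of the 99, where the background was 4.21% and 5.47%. Pik3ip1, an inhibitor of phosphoinositide 3-kinase, which lies upstream of glucose uptake, was at 15.5, 13.4 and 14.6 CPM for WT and 57.5, 46.2 and 73.1 CPM for S303/7A (log2 fold 2.02 ± 0.18, SE, adjusted p 0.011 in edgeR's quasi-likelihood test). Gnpda1, a deaminase that returns glucosamine 6-phosphate to glycolysis as fructose 6-phosphate, was at 20.4, 21.1 and 18.2 CPM and at 47.6, 39.7 and 47.1 CPM (log2 fold 1.17 ± 0.12, adjusted p 0.0195). The Gnpda1 call was lost in 5 of 6 fits with 1 library left out (all but that without mutant 6), and that of Pik3ip1 in 3, those without a WT library.

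By group, 0 of 15 further transporters and enzyme isoforms, 0 of 9 genes of pyruvate entry, 0 of 7 of the pentose phosphate pathway, 0 of 16 of glycogen, 1 of 9 of the hexosamine pathway, 0 of 16 of the HIF pathway and 1 of 27 upstream regulators were called. Their median log2 folds lay between -0.13 and 0.07. Among known regulators of glucose use, Myc was at 77.7 ± 7.81 CPM (WT) and 91.5 ± 12.3 CPM (S303/7A), with SD and n = 3, Mtor at 41.5 ± 4.79 and 39.3 ± 7.08, and Txnip, a brake on glucose transporters, at 833 ± 90.3 and 863 ± 101. Pdk4, the kinase of fasting tissues, had no count in 5 libraries and 19 in S303/7A 7. Myc, Mtor and Txnip overlapped between the genotypes and did not pass.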

How the data were processed

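Gene-level RNA-seq of sorted splenic NK cells was analysed in 6 libraries, 3 WT and 3 S303/7A, each from 1 mouse per the labels' protocols, made with the SMART-seq HT kit. Per the submitters' processing notes, the authors used Trimmomatic, STAR, featureCounts and DESeq2 with GRCm38 (mm10); the sources used here do not give versions, annotation release, strand setting or the treatment of multi-mapped reads. Raw counts per gene name, whole numbers without normalization, were deposited by the authors and used here. A deposited table of normalized values was not used.

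In R 4.3.3, edgeR 4.0.16 kept 16480 genes (filterByExpr, minimum count 10, minimum total 15), scaled by TMM and ran the quasi-likelihood test, with Benjamini-Hochberg adjustment over all genes tested and a threshold of 0.05. CPM are TMM-scaled. Standard errors and 95% intervals of folds come from the same fit and cover the spread between 3 mice per genotype. Exon lengths, positions and copies are from GENCODE release 21 for mouse on GRCm38, and all 35 genes matched. Without molecular identifiers, reads may repeat a molecule. In simulated counts for these 16480 genes, 50 genes per fold were changed by known folds. The changed genes were drawn without those of lowest average level, so recovery for low genes was not measured. The quasi-likelihood test found 9 (1.5-fold), 19 (2-fold), 44 (4-fold) and 49 (8-fold), and called 9 unchanged ones. The members and gene lists were chosen with earlier results of these data known. The named genes are all members, called genes of the wider lists, Myc, Txnip, Mtor, Pdk4 and Hsf1. Alternatives were DESeq2 1.42.0, limma-voom 3.58.1, other size factors, no filter, thinned counts, joined copies and leaving out each library. The protein length named for the coding-length alternative was replaced by the coding length of GENCODE. No batch is given in the labels.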

Additional observations from a re-analysis of the deposited data

How the results depend on the processing

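Hk2 and Eno1b were called lower under all 6 alternatives of scaling, tool, filter and depth, and 24 of the 34 tested genes kept their sign under every alternative. No paired analysis was possible because the genotypes share no replicate number. The count of members called lower, 2, ran from 0 to 1 when 1 library was left out, and was 1 with Eno1 and Eno1b added and 1 with near copies added, since Eno1b is then not counted alone. DESeq2 called 1 member higher and 1 wider gene lower, where 0 were called otherwise. The count of wider genes called higher, 2, ran from 0 to 2 without 1 library. These fits have fewer samples and call 5 to 57 genes in all, where 60 were called with all libraries 434 by DESeq2, 38 by limma-voom, 171 without the filter and 32 with near copies added. The signs that turned belong to genes that were not called. With library totals alone the log2 fold was -0.02 for Slc2a1 and -0.0014 for Gpi1, with limma-voom 0.03 for Pdk1, without the filter -0.00053 for Slc2a1, and after thinning 0.01 for Pgk1. Leaving out 1 library gave ranges that span 0 for Slc2a1 (-0.07 to 0.06), Gpi1 (-0.05 to 0.08), Aldoa (-0.02 to 0.09), Pkm (-0.03 to 0.12), Pgk1 (-0.09 to 0.07), Pfkfb3 (-0.14 to 0.12), Slc16a1 (-0.42 to 0.01), Slc16a3 (-0.29 to 0.04), Pdk1 (-0.39 to 0.13) and Pdk3 (-0.12 to 0.04). Of the isozyme shares, that of Pfkfb3 ranged from -3.43 to 1.39 points, Slc16a1 from -2.91 to 3.3 and Pdk1 from -1.67 to 1.2, while that of Hk2 stayed between -3.08 and -2.88. Eno1 alone differed by 15.2 points per exon length (88.0% in WT and 95.3% in S303/7A per coding length), against 1.1 with Eno1b. The cause was not tested. Low counts limit Ldhb and Eno2.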

Other observations

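Some members lie close to genes called in this comparison, while others lie up to 110 Mb away (Pdha1) or have none on their chromosome (such as Hk1). Distances for all genes were not computed, and whether position plays a part was not tested. Ldhb is 0.0569 Mb from Kcnj8 on chromosome 6, a potassium channel gene at 0.223 ± 0.203 CPM in WT and 38.5 ± 8.16 CPM in S303/7A (SD, n = 3). Ldhb itself was higher in every S303/7A library but not called, on only 11 to 49 counts per library. Ldha, 0.877 Mb from Gm5733 on chromosome 7, was likewise higher in every S303/7A library and not called. Gapdh, Tpi1 and Eno2 are 0.38, 0.732 and 0.777 Mb from Vwf, which was at 32.1 ± 2.06 and 13.5 ± 2.74 CPM. Vwf was thus lower in S303/7A, while Gapdh and Tpi1 were higher in every S303/7A library without being called, and Eno2 was not tested. Platelet markers were also lower in these libraries, and their part in the Vwf difference was not tested. Eno3 is 0.038 Mb from Chrne, an acetylcholine receptor subunit gene, at 30.3 ± 2.36 and 15.2 ± 0.59 CPM. Eno3 itself was lower in every S303/7A library and not called. Hk2 is 42.8 Mb from the nearest called gene.

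Among 81 tested genes that share at least one 50-base word with a member, 3 were called lower and 0 higher in edgeR's quasi-likelihood test, with 10 lower and 3 higher at an unadjusted p under 0.05. The 3 called lower are Gm4735, Gm5855 and Gm13394. Over all genes tested 0.231% were called lower and 0.133% higher, with 5.47% lower and 4.21% higher at an unadjusted p under 0.05. Many of the 81 are not copies and share few words, such as Adh5 with 0.282% of those of Gpi1. Over all 1054 tested processed pseudogenes 3 were called higher and 6 lower, with a median log2 fold of 0.09, against 0.01 over 12264 protein-coding genes.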
